A study of Mus musculus with 6 samples.

Results

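The 34 genes described here build and carry the chromosome structures of meiosis. They were chosen by name, from what their products do in germ cells, and all 34 were found among the 25239 genes of the deposited table. They fall into 7 roles: 7 genes of the synaptonemal complex, 4 of the meiotic cohesin, 6 of the chromosome axis and of break formation, 5 of strand exchange, 5 of crossover formation, 3 of telomere attachment, and 4 of meiotic entry and of the bridges between germ cells.

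RNA was sequenced from E14 cells, a line of mouse embryonic stem cells grown in the serum-free medium N2B27 with the cytokine LIF and the 2i inhibitors. Of the 6 libraries, 3 came from cells transfected with siRNA against Ehmt2 and 3 from cells given a control siRNA, and all were collected on day 3. Every library is labelled wild type, so the depletion is a transient knockdown in an otherwise unmodified line. The labels do not say that the replicates were separate cultures, so the p-values below measure only the spread between these libraries.

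Ehmt2 encodes G9a, an enzyme that adds methyl groups to lysine 9 of histone H3 and silences genes. Many meiotic genes are silent or held low in embryonic stem cells and somatic cells. A Polycomb complex that contains the DNA-binding proteins MGA, MAX and E2F6 is known to hold many of them down in embryonic stem cells, through E-box letters (CACGTG) and E2F letters (such as GGCGGGAA) close to their starts, and G9a and its partner GLP have been found with that complex. In germ cells, homologous chromosomes are cut, paired along a protein axis, zipped together by the synaptonemal complex and joined by crossovers.

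The promoter windows below are shown as examples of both kinds of letters. That of Syce1, the single gene of the set that passed the test, has neither. Most genes of the set with a window also had neither, among them Dmc1, Hfm1 and Rec8, which did not pass. Having neither therefore does not set Syce1 apart. All windows run from 250 bases before to 50 bases after the RefSeq start of each gene on GRCm38.p6. They are printed 5′ to 3′ on the gene's own strand, in lower case, with CACGTG and GGCGGGAA in capitals (searched on both strands). The first 3 hold both motifs.
Hormad1, chr3:95559427-95559726, plus strand: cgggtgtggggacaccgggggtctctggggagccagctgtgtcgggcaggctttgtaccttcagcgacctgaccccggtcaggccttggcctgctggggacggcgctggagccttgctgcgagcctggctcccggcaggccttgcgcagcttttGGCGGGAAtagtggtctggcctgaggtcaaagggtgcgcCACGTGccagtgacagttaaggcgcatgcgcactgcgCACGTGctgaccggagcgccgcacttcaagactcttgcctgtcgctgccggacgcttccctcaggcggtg
Tex12, chr9:50561219-50561518, minus strand: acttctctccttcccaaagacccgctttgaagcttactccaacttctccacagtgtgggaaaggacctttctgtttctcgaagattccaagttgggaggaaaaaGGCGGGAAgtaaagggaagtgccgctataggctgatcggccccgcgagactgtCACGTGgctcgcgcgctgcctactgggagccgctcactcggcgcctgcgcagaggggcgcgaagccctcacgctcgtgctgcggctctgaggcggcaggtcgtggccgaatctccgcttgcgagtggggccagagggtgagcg
Syce2, chr8:84872008-84872307, plus strand: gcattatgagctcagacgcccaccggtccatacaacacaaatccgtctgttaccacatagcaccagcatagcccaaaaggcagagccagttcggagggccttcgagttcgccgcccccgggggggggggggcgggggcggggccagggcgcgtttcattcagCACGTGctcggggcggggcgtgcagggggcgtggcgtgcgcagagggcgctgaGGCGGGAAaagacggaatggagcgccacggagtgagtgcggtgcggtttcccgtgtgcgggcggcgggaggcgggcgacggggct
The next holds 2 copies of CACGTG, and the last holds no copy of either.
Sycp3, chr10:88459337-88459636, plus strand: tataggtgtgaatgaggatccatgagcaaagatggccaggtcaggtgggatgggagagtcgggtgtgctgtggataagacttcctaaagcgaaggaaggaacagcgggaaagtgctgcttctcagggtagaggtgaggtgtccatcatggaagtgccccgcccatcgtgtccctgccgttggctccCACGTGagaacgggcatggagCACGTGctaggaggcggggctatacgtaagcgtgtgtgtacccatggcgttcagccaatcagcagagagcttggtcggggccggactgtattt
Syce1, chr7:140787805-140788104, minus strand: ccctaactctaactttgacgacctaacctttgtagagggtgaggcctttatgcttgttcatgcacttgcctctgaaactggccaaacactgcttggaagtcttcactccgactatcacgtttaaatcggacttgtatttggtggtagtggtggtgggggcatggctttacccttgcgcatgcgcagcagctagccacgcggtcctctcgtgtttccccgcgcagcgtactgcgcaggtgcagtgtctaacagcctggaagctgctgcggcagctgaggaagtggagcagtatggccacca

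RefSeq windows were at hand for 27 of the 34 genes. CACGTG lay in those of 6 genes, which is 22.2% of the 27, against 8.09% of all 27025 genes with a window. They were Hormad1, Sycp1, Sycp3, Syce2, Tex12 and Stag3. GGCGGGAA also lay in those of 6 genes, 22.2% of the 27 against 2.52% of all, and these were Hormad1, Syce2, Tex12, Msh5, Prdm9 and Tex14. Hormad1, Syce2 and Tex12 held both, 11.1% of the 27 against 0.296% of all. In Hormad1 the motifs began 96, 57 and 20 bases before the start, in Tex12 146 and 93 bases, and in Syce2 88 and 35 bases (the window of a second Syce2 start holds neither). The meiotic windows were also richer in CG, with a median ratio of observed to random CpG of 0.686 against 0.415 over all genes, and both motifs contain CG. A match is a description of the letters and not of a bound site.

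The authors' deposited table gives for each gene the mean normalized count over the 6 libraries, a log2 fold change and an unadjusted p-value. Ehmt2 itself had a log2 fold change of -1.53, which is 34.7% of the control level with a 95% interval of 29.4% to 41.0% (Benjamini-Hochberg adjusted p = 2.87e-33). The table does not name the direction of its fold changes. They are read here as Ehmt2 siRNA over control siRNA because the gene targeted has a negative value, and all directions below rest on that reading. Library values were worked out from the mean column for 26 of the 34 genes, as whole reads and as reads divided by the library's size factor (normalized counts). Their replicate numbers are not known, so the libraries are called A, B and C (Ehmt2 siRNA) and D, E and F (control siRNA), lettered by falling size factor within each group. Size factors, which follow depth, were between 0.952 and 1.25 in the Ehmt2 siRNA libraries and between 0.845 and 1.05 in the control libraries, with library A the deepest and library F the shallowest of the 6. Libraries A and F stood apart from the rest of their groups for many of the genes below, and values without them are given after the results by role. The 10 embryonic stem cell markers had means between 13752 and 122043 normalized counts and none passed the test.

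Of the 34 meiotic genes, 1 rose, 0 fell and 33 did not pass the test at an adjusted p below 0.05 over all 20461 tested genes. The share that passed was 2.94% of the meiotic genes, against 10.3% of all tested genes in either direction (5.45% higher and 4.82% lower) and 13.9% of those with a mean of at least 20 normalized counts, a level that 31 of the 34 reached. At an unadjusted p under 0.05, 4 meiotic genes were higher and 4 lower, 23.5% of the 34 beside 19.7% of all tested genes. Per kilobase of the longest annotated transcript, mean levels were highest for Hsf2bp (2438 normalized counts), Syce2 (2310), Stag3 (1566) and Psmc3ip (1449), and lowest for Rad21l (0.695), Spo11 (1.18), Mei1 (1.44) and Sycp2 (3.54). Fold changes were positive for 14 genes and negative for 20, with a median of -0.10 on the log2 scale, beside 0.01 over all tested genes. Taken without sign, the median log2 fold change was larger in the set. It was 0.25 for the 34 genes, beside 0.13 over all tested genes with a mean of at least 20. For 19 genes the 95% interval lay wholly between log2 fold changes of -1 and 1. For the other 15 it reached past at least 1 of those limits.

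**Figure D1:**
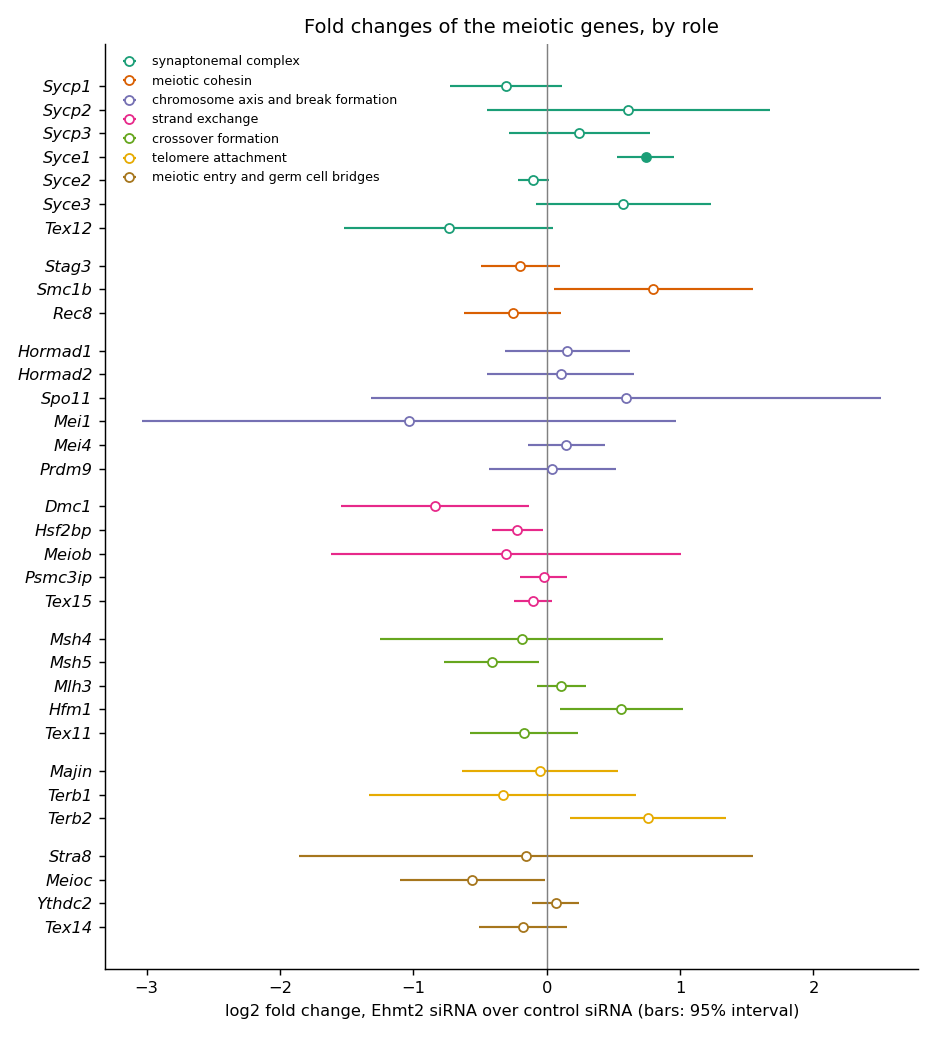
Log2 fold change (x axis, Ehmt2 siRNA over control siRNA) with its 95% interval for 33 of the 34 meiotic genes, coloured by role; the filled point is Syce1 (0.74), the gene past an adjusted p of 0.05. Rad21l, with 7 reads in all 6 libraries, is left out, and the intervals of most other genes include 0.

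Among the 7 genes of the synaptonemal complex, 1 rose and 6 did not pass. Syce1 encodes a protein of the central element, which lies between the lateral elements of paired chromosomes. It had 573, 556 and 595 normalized counts in Ehmt2 siRNA libraries A, B and C. In control libraries D, E and F it had 322, 360 and 349. The groups did not overlap and each was tight, with 574 ± 19.6 in Ehmt2 siRNA cells and 344 ± 19.7 in control cells (SD, n = 3 each). The log2 fold change was 0.74, with a 95% interval of 0.53 to 0.96, or 167% of the control level (adjusted p = 1.59e-09). Leaving out each library in turn gave log2 ratios between 0.69 and 0.77. Syce1 lies on GRCm38 at chr7:140777229-140787854, minus strand.

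The partners of SYCE1 in the central element gave other values. Syce3, which recruits SYCE1 to the forming complex, had 60.1, 80.9 and 103 normalized counts in Ehmt2 siRNA libraries and 64.0, 61.7 and 36.7 in control libraries. The groups overlapped, with a log2 fold change of 0.57 (95% interval -0.08 to 1.23, adjusted p = 0.357). Tex12, which with SYCE2 forms the fibres of the central element, had 18.4, 29.4 and 29.4 normalized counts in Ehmt2 siRNA libraries and 53.5, 42.8 and 30.8 in control libraries. All 3 Ehmt2 siRNA libraries were below the lowest control library, B and C only just, and the log2 fold change of -0.74 did not pass (95% interval -1.52 to 0.05, adjusted p = 0.299). Syce2 had the highest mean of the complex, 3894 normalized counts, and its log2 fold change was -0.10 (95% interval -0.22 to 0.02, adjusted p = 0.363).

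Sycp1, the transverse filament that spans the gap between homologues, had 420, 590 and 633 normalized counts in Ehmt2 siRNA libraries and 827, 689 and 510 in control libraries, a log2 fold change of -0.31 (adjusted p = 0.508). Sycp3, a core protein of the lateral element, had 488, 869 and 850 normalized counts in Ehmt2 siRNA libraries and 739, 713 and 410 in control libraries, a log2 fold change of 0.24 (adjusted p = 0.78). In both genes the groups overlapped and the lowest library of each group was A and F. Sycp2, the partner of SYCP3 in the lateral element, had few reads, with between 16.8 and 36.8 normalized counts in Ehmt2 siRNA libraries and between 11.8 and 22.9 in control libraries. Sycp3 lies wholly within Chpt1, Tex12 shares its whole length with Il18, and Syce2 shares 1829 bases with Gcdh, each on the opposite strand. The library kit keeps strand, but whether counting used strand is not stated, so these genes may share reads with those neighbours. None of the neighbours passed (log2 fold change 0.09 for Chpt1, 0.33 for Il18 and -0.02 for Gcdh).

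**Figure D2:**
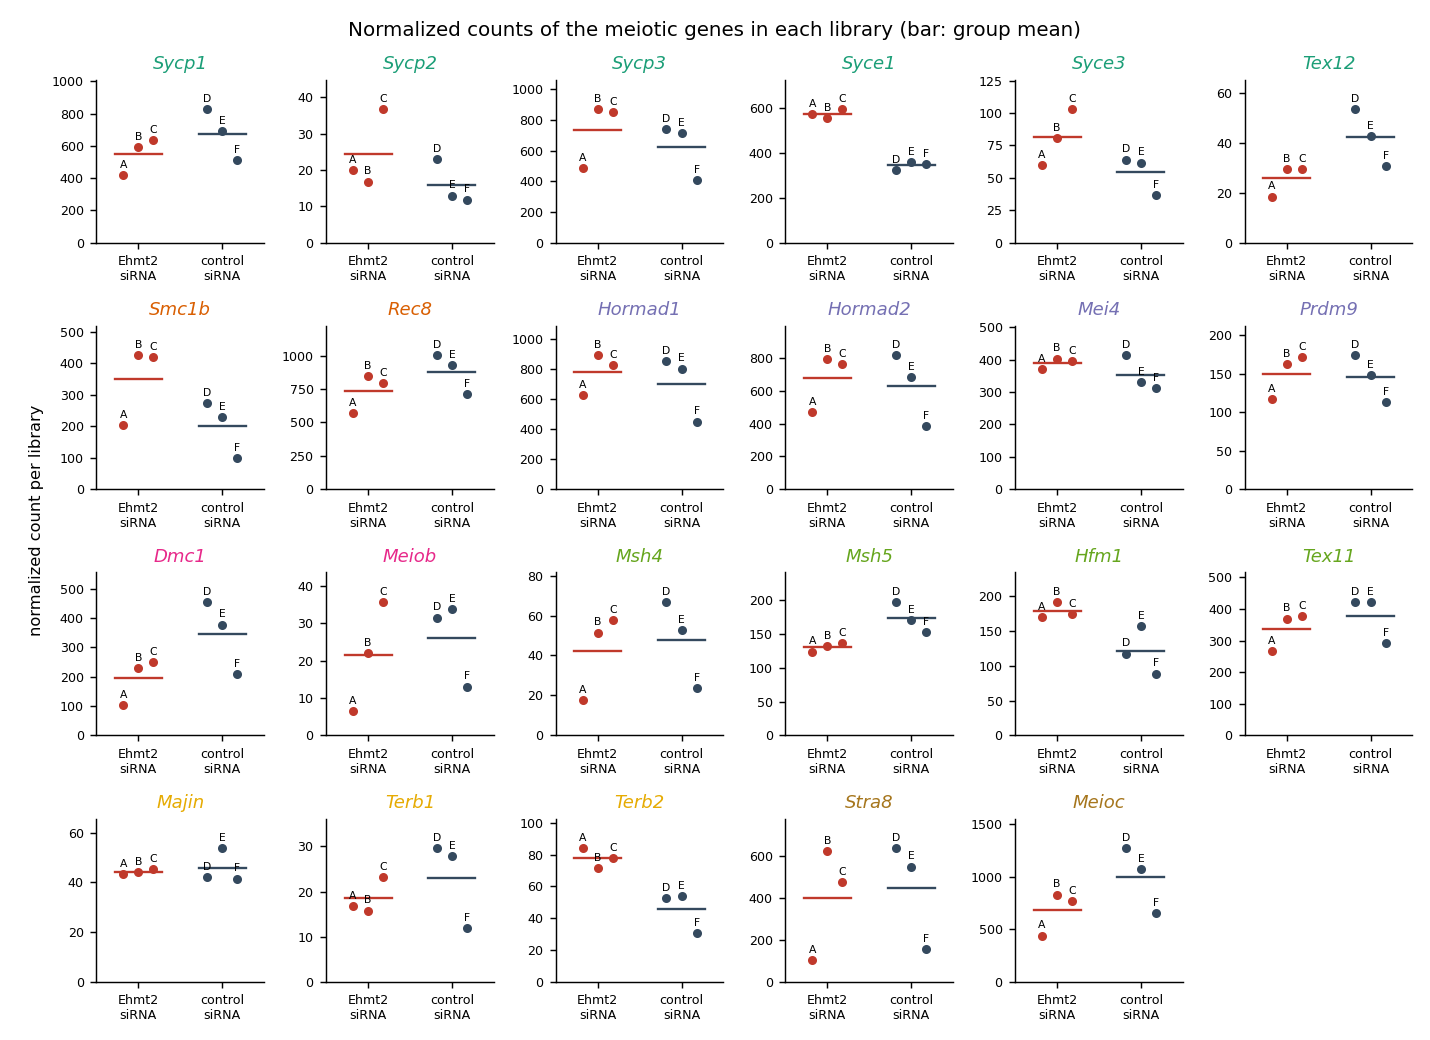
Normalized counts (y axis, from 0, a scale per gene) of the 23 meiotic genes with recovered values and a mean of at least 20, in Ehmt2 siRNA libraries A to C (red, left) and control libraries D to F (dark, right); bars are group means and title colours mark the roles. Syce1 separates with tight groups, and libraries A and F are the lowest of their group in most panels.

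The 4 genes of the meiotic cohesin, the rings that hold sister chromatids together on the axis, gave 0 that passed. Stag3, its STAG subunit, had the second highest mean of the 34, 7312 normalized counts, with a log2 fold change of -0.20 (95% interval -0.49 to 0.10, adjusted p = 0.569). Rec8, the meiotic kleisin that closes the ring, averaged 738 ± 149 normalized counts in Ehmt2 siRNA cells and 880 ± 150 in control cells (SD, n = 3 each), a log2 fold change of -0.26 (adjusted p = 0.54). Smc1b, the meiotic form of SMC1, had 203, 425 and 421 normalized counts in Ehmt2 siRNA libraries and 273, 230 and 98.3 in control libraries. Ehmt2 siRNA library A fell inside the control range while B and C were above it, and the log2 fold change of 0.80 did not pass (95% interval 0.05 to 1.55, adjusted p = 0.201). Rad21l, a second meiotic kleisin, had 0 reads in each Ehmt2 siRNA library, against 6, 0 and 1 reads in control libraries D, E and F, too few for a comparison.

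Per kilobase of the longest annotated transcript, these subunits stood very differently to their somatic relatives. Smc1b had 68.0 mean normalized counts per kilobase, 1.56% of the level of Smc1a, and Rec8 had 370, 5.53% of the level of Rad21. Stag3, by contrast, had 1566 per kilobase, 78.3% of the level of Stag1 and 116% of that of Stag2. The STAG subunit was thus at a level like that of its somatic relatives, and the SMC and kleisin subunits were far under theirs.

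None of the 6 genes of the chromosome axis and of break formation passed. Hormad1, a HORMA-domain protein of unpaired axes, averaged 779 ± 139 normalized counts in Ehmt2 siRNA cells and 700 ± 219 in control cells (SD, n = 3 each), with a log2 fold change of 0.15 (adjusted p = 0.89). Hormad2, its relative, averaged 677 ± 180 normalized counts in Ehmt2 siRNA cells and 629 ± 221 in control cells, with a log2 fold change of 0.10 (adjusted p = 0.951). Mei4, which is needed for meiotic DNA breaks, averaged 390 ± 17.5 normalized counts in Ehmt2 siRNA cells and 351 ± 54.1 in control cells, with a log2 fold change of 0.15 and a 95% interval of -0.14 to 0.44. Prdm9, the methyltransferase that places mouse recombination hotspots, averaged 150 ± 29.2 normalized counts in Ehmt2 siRNA cells and 145 ± 30.2 in control cells, with a log2 fold change of 0.04 (95% interval -0.43 to 0.52). Spo11, the enzyme that makes the breaks, had 5, 8 and 3 reads in Ehmt2 siRNA libraries and 5, 3 and 2 in control libraries, and Mei1, also needed for them, had 3, 5 and 4 reads in Ehmt2 siRNA libraries and 8, 15 and 1 in control libraries. The axis genes and Mei4 were thus clearly expressed, while the enzyme that makes the breaks was at the level of a few reads in every library.

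Of the 5 genes of strand exchange, 0 passed. Dmc1, the meiotic recombinase that pairs a broken end with the homologue, had 104, 230 and 250 normalized counts in Ehmt2 siRNA libraries and 456, 378 and 208 in control libraries. The groups overlapped through control library F, and the log2 fold change of -0.84 did not pass (95% interval -1.55 to -0.13, adjusted p = 0.133). Hsf2bp, which binds BRCA2 and helps load recombinases in meiosis, had the highest mean of the 34, 7594 normalized counts, with a log2 fold change of -0.22 (95% interval -0.41 to -0.03, adjusted p = 0.151). Psmc3ip (HOP2), the partner of MND1, had a mean of 1871 normalized counts and a log2 fold change of -0.02 (95% interval -0.20 to 0.15). Tex15, known in mouse for meiotic break repair and transposon silencing, had a mean of 2852 normalized counts and a log2 fold change of -0.10 (95% interval -0.24 to 0.04, adjusted p = 0.517). With the trend of fold change on GC content removed, Tex15 passed at a log2 fold change of -0.22 (adjusted p = 0.0277). Meiob, a single-strand DNA binding protein, had 6.41, 22.1 and 35.7 normalized counts in Ehmt2 siRNA libraries and 31.5, 33.8 and 13.0 in control libraries, and its groups overlapped. Hsf2bp shares 250 bases with Rrp1b and Psmc3ip 385 bases with Mlx, each on the opposite strand, with the same limit as above.

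Among the 5 genes of crossover formation, 0 passed. Of the 4 with library values, the groups of 2 did not overlap, in opposite directions. Over all recovered genes with a mean of 20 to 1000, the groups of 36.0% did not overlap (17.1% higher and 19.0% lower). Hfm1, a helicase that promotes crossovers, had 171, 192 and 174 normalized counts in Ehmt2 siRNA libraries and 118, 157 and 88.8 in control libraries. Every Ehmt2 siRNA library was above every control library, and the log2 fold change was 0.56 (95% interval 0.10 to 1.02, adjusted p = 0.124). Without control library E its adjusted p over the recovered genes was 0.0418, and without each of the other libraries it was between 0.174 and 0.493. Msh5, which with MSH4 forms a clamp on recombination intermediates, had 124, 132 and 137 normalized counts in Ehmt2 siRNA libraries and 198, 171 and 153 in control libraries. Every Ehmt2 siRNA library was below every control library, and the log2 fold change was -0.41 (95% interval -0.77 to -0.06, adjusted p = 0.15). Msh4, its partner, had 17.6, 51.5 and 57.8 normalized counts in Ehmt2 siRNA libraries and 66.9, 52.7 and 23.7 in control libraries, which overlapped widely. Mlh3, which helps to resolve crossovers, had a mean of 3584 normalized counts and a log2 fold change of 0.11 (95% interval -0.07 to 0.29). Tex11, an X-linked crossover factor, averaged 338 ± 62.2 normalized counts in Ehmt2 siRNA cells and 378 ± 75.5 in control cells (SD, n = 3 each), with a log2 fold change of -0.17 (adjusted p = 0.818).

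The 3 genes that attach telomeres to the nuclear envelope, so that chromosomes can be moved to find their partners, had mean levels between 7.06 and 29.2 normalized counts per kilobase, and 0 passed. Terb2 had 84.1, 71.4 and 77.7 normalized counts in Ehmt2 siRNA libraries and 52.5, 53.7 and 30.8 in control libraries. Its groups did not overlap, with a log2 fold change of 0.76 (95% interval 0.17 to 1.35, adjusted p = 0.089). Terb1, which binds the telomere protein TRF1, had 16.8, 15.8 and 23.1 normalized counts in Ehmt2 siRNA libraries and 29.6, 27.9 and 11.8 in control libraries, and the groups overlapped. Majin, the membrane protein of this complex, had 43.3, 44.1 and 45.2 normalized counts in Ehmt2 siRNA libraries and 42.0, 53.7 and 41.4 in control libraries, a log2 fold change of -0.05 (95% interval -0.64 to 0.53). TERB1, TERB2 and MAJIN act as 1 complex. The value of Terb2 was positive where those of Terb1 (-0.33, 95% interval -1.33 to 0.67) and Majin were below 0. The 95% intervals of the 3 genes overlapped.

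None of the 4 genes of meiotic entry and of germ cell bridges passed. Stra8, the gene that retinoic acid switches on at meiotic entry, varied widely within its groups, with 104, 625 and 476 normalized counts in Ehmt2 siRNA libraries and 637, 549 and 156 in control libraries. Its log2 fold change of -0.16 had a 95% interval of -1.86 to 1.55, and its sign turned when library A, D or E was left out (log2 ratios of 0.30, 0.19 and 0.02). Meioc, which with YTHDC2 keeps germ cells in the meiotic programme, had 439, 830 and 770 normalized counts in Ehmt2 siRNA libraries and 1271, 1070 and 656 in control libraries, a log2 fold change of -0.56 (95% interval -1.10 to -0.01, adjusted p = 0.234). Ythdc2, the RNA helicase that partners it, had a mean of 2595 normalized counts and a log2 fold change of 0.07 (95% interval -0.11 to 0.24). Tex14, which keeps the bridges between germ cells open, had the third highest mean, 3976 normalized counts, with a log2 fold change of -0.18 (95% interval -0.50 to 0.15, adjusted p = 0.698).

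In all, the groups of 5 genes did not overlap: Syce1, Terb2 and Hfm1 were higher and Tex12 and Msh5 lower in Ehmt2 siRNA cells. Another 3 recovered genes, Rad21l, Spo11 and Mei1, had means under 20 and were not counted. The 5 were 21.7% of the 23 recovered meiotic genes with a mean of at least 20, against 36.0% of all 5848 recovered genes of that range. Over those 5848 genes 17.1% were higher without overlap and 19.0% lower, so the share of separated genes was no larger among the meiotic genes than over the table. An exact permutation test of 3 libraries against 3 cannot give a two-sided p under 0.1, so non-overlap by itself is a description.

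The spread within the groups had a pattern that ran through most of the set. Library A was the lowest Ehmt2 siRNA library for 19 of the 23 genes (82.6%), against 52.2% of all recovered genes of the same range. Library F was the lowest control library for 22 of the 23 (95.7%), against 56.7%. The median gene had 0.77 of its group mean in library A and 0.68 in library F, where the median over all recovered genes was 0.95 and 0.93. The exceptions in library A were Sycp2, Syce1, Terb1 and Terb2, and in library F Syce1. Library A had the largest and library F the smallest size factor, and the part of depth, culture or cell state in this pattern was not tested. Markers of 2-cell-like cells, a rare state of embryonic stem cells, had the same order of libraries A and F in their sums. Their 15 tested members summed to 683, 1503 and 1465 normalized counts in libraries A, B and C (Ehmt2 siRNA). The sums were 239, 196 and 80.5 in libraries D, E and F (control siRNA). By gene, library A was the lowest of its group for 15 of these markers and library F for 12. Among 26 other meiotic genes with library values (from the wider list below), the counts were 16 and 20. Unlike the 23 genes, both of these lists include genes with means under 20, where a few reads set the order of libraries. Of the 15 markers, 14 rose (93.3%, against 5.45% of all tested genes), and Dux did not pass. In bulk RNA, fewer cells with a transcript and less transcript per cell cannot be told apart. Over the 26 genes with library values the median log2 ratio was 0.19 without library A, -0.23 without library F and -0.10 without both, so its sign rested on single libraries. Syce1, at a log2 ratio of 0.75 without both, was the single recovered gene of the set that passed in each of these 3 cases. Smc1b had a log2 ratio of 1.07 without library A, 0.48 without library F and 0.75 without both. Dmc1 had one of -0.53 without library A, -1.09 without library F and -0.79 without both. Terb2 had one of 0.70 without library A, 0.54 without library F and 0.48 without both, and Hfm1 had one of 0.59 without library A, 0.38 without library F and 0.41 without both. For Tex12 and Msh5 the log2 ratio without both was -0.69 and -0.45.

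**Figure D3:**
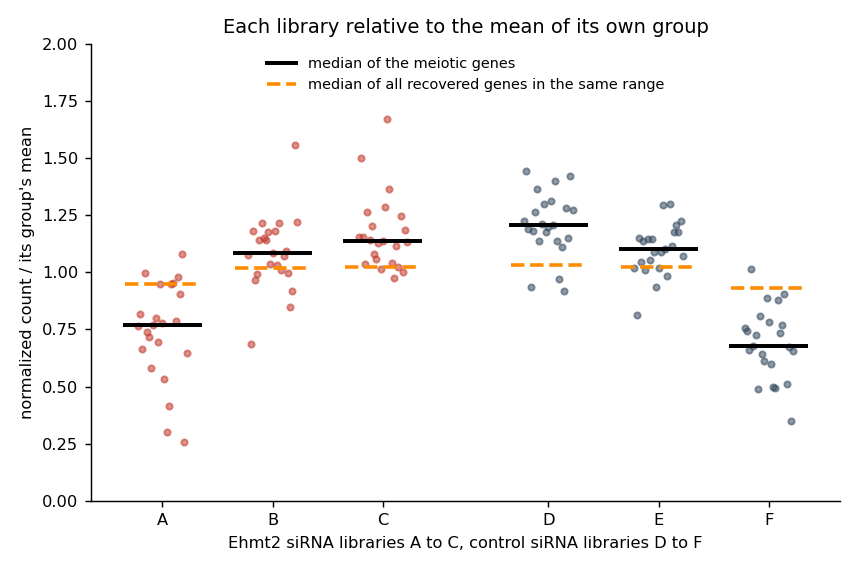
Normalized count of each library divided by the mean of its own group (y axis) for the 23 meiotic genes with recovered values and a mean of at least 20 (points), with their median (black bars) and the median over 5848 recovered genes of the same range (dashed bars). The meiotic median is 0.77 in library A and 0.68 in library F, below the dashed bars at 0.95 and 0.93.

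A wider list of 50 other meiotic genes was set beside these, of which 42 were tested: 4 rose, 1 fell and 37 did not pass. Sycp2l, a relative of SYCP2 known from mouse oocytes, had 502, 547 and 575 normalized counts in Ehmt2 siRNA libraries and 326, 295 and 240 in control libraries, with a log2 fold change of 0.91 (adjusted p = 5.59e-08). Prr19, a crossover factor that acts with CNTD1, had 224, 187 and 187 normalized counts in Ehmt2 siRNA libraries and 103, 114 and 115 in control libraries, with a log2 fold change of 0.85. Spata22, the partner of MEIOB, had 72.1, 110 and 111 normalized counts in Ehmt2 siRNA libraries and 51.6, 37.8 and 34.3 in control libraries, with a log2 fold change of 1.24. In these 3 genes every Ehmt2 siRNA library was above every control library. Sgo2a (shugoshin 2, which protects cohesin at centromeres) had a mean of 9727 normalized counts and a log2 fold change of 0.23 (adjusted p = 0.0101), and did not pass with the GC trend removed (log2 fold change 0.14, adjusted p = 0.25). The gene that fell was Tcfl5, a transcription factor of spermatogenesis, with 47.3, 53.6 and 41.0 normalized counts in Ehmt2 siRNA libraries and 99.3, 109 and 94.7 in control libraries, a log2 fold change of -1.10.

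The 5 that passed were 11.9% of the 42, against 10.3% of all tested genes, and their 42 log2 fold changes had a median of 0.05. The partners of 2 of them did not pass: Meiob, which acts with Spata22, had a log2 fold change of -0.31 (adjusted p = 0.94), and Cntd1, which acts with Prr19, one of -0.31 (adjusted p = 0.572). Of 15 mitotic counterparts 1 rose, Rad21, the somatic kleisin, with a log2 fold change of 0.21 (95% interval 0.08 to 0.34, adjusted p = 0.019), and 14 did not pass. With the GC trend removed Rad21 did not pass either (log2 fold change 0.15, adjusted p = 0.153).

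**Figure D4:**
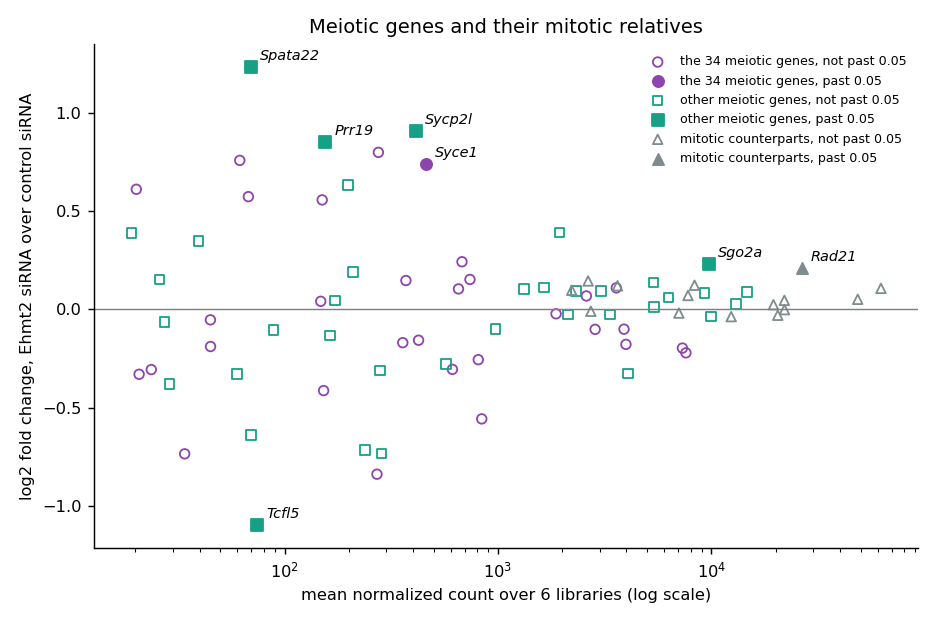
Log2 fold change (y axis) against mean normalized count (x axis, log scale) for the 34 meiotic genes, the other meiotic genes and the mitotic counterparts with a mean of at least 10; filled symbols passed an adjusted p of 0.05 and are named. Filled symbols are Syce1 among the 34, 5 other meiotic genes of which Tcfl5 lies below 0, and Rad21.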

How the data were processed

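Poly(A)-selected, strand-keeping libraries (TruSeq Stranded mRNA, paired reads) were made from 3 Ehmt2 siRNA and 3 control siRNA samples of E14 cells, per the labels' protocols. Tools listed in the submitters' processing notes are STAR, DESeq2, Trimmomatic 0.36 and FastQC, with the builds GRCm38 and mm10. No source used here gives the read counter, its annotation or its use of strand. From these steps the authors deposited 1 table of 25239 genes with a signal (the mean count over 6 libraries after division by size factors), a log2 fold change and an unadjusted p-value; 20461 genes have a p-value and 4778 are at 0. All fold changes, means and p-values printed for a gene are those of the authors' deposited table unless a ratio of library values is named.

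Adjusted p-values were computed by the Benjamini-Hochberg method over all 20461 p-values (threshold 0.05, reached at an unadjusted p of 0.00514), and 95% intervals from the fold change and the error that the p-value implies. Library values were computed from the mean column. Genes with 1 read in all give 6 distinct means, hence 6 size factors, and the sign of their fold change gives the group. Whole reads per library were then searched for each gene so that they give the deposited mean. All 6262 genes with a mean below 20 and 5848 of 5862 with a mean of 20 to 1000 had 1 solution (12110 in all). A solution above 20 also had to give the deposited fold change; below 20 that value was not used, and 1997 of 1997 genes checked gave it within 1e-05. In simulated data 393 of 400 genes were recovered and 393 were right. The 8 meiotic genes with a mean above 1000 have no library values. Recovered reads summed to between 1383346 and 2038164 per library over these genes, and total depth is unknown.

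The members and the lists were chosen with earlier results of these data known, and give no independent support. The named genes are every member, with full values for those that passed, that did not overlap between groups or had the 4 highest means (the last have means, fold changes and intervals but no library values), the passing genes of the other meiotic and mitotic lists, and Ehmt2; library values of other members were added after they were seen. Positions and promoter windows come from RefSeq on GRCm38.p6 and transcript lengths and GC content from GENCODE M21 (97.2% of tested genes, 34 of 34 members). Alternatives were a threshold of 0.01, Holm adjustment, adjustment over means of at least 10, a log2 fold change of at least 1, removal of a lowess trend on GC content (fraction 0.3, fitted on means of at least 50), ratios with a pseudocount of 1, and leaving out libraries. Python 3.11.15 with numpy, scipy, pandas, statsmodels, numba and sympy was used.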

Additional observations from a re-analysis of the deposited data

How the results depend on the processing

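Syce1 passed under every alternative run except the required log2 fold change of at least 1, where 0 of the 34 genes passed. With the GC trend removed 2 passed, Syce1 higher and Tex15 lower. Of all tested genes 2103 passed, against 1327 at an adjusted p below 0.01, 584 when a change of at least 1 on the log2 scale was also required and 525 with Holm adjustment. Of the other meiotic genes 5 passed, against 2 under that requirement and 2 with Holm adjustment; Sgo2a did not pass at 0.01. Of the mitotic counterparts 1 passed (Rad21), and 0 at an adjusted p below 0.01, under that requirement, with the GC trend removed or with Holm adjustment.

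Leaving out libraries was done on recovered genes with their dispersion held, an alternative chosen after seeing the data. The libraries that remain are assumed to vary like the others. Without each library in turn between 838 and 1048 recovered genes passed, against 1209 with all 6 and 768 without libraries A and F together. Of the recovered meiotic genes 1 or 2 passed, 2 without library E, where Hfm1 joined Syce1. Of the recovered other meiotic genes between 4 and 6 passed. With all 6 libraries and adjustment over recovered genes only, 5 of these passed, 3 higher and 2 lower. They are not the same 5 as above, since Sgo2a has no library values. The median log2 ratio of the 26 recovered meiotic genes was between -0.23 and 0.19 without each library, above 0 without A, D or E, and -0.10 without libraries A and F. The median of all 34 was -0.12 with the GC trend removed. Raw recovered reads separated the groups of 4 meiotic genes, all higher, in place of 5. Tex12 and Msh5 then overlapped, and Syce3 separated. Raw reads are not corrected for depth. The deepest library (A) is in the Ehmt2 siRNA group and the shallowest (F) in the control group, which tilts raw reads toward higher. The shorter motif GCGGGAA lay in the promoter windows of 11 of 27 genes, against 6 for GGCGGGAA. The 11 were 40.7% of the 27, where the share over all genes with a window was 5.29%. Sycp3 and Stag3, which hold CACGTG without GGCGGGAA, were among the 11. So were Hsf2bp, Meioc and Smc1b, which hold neither CACGTG nor GGCGGGAA. Spo11, Rad21l, Tex15 and Ythdc2 moved beyond the spread between libraries, or beyond their error, under at least 1 alternative. The sign of 8 genes, none of which passed, changed under between 1 and 3 alternatives: Hormad1, Hormad2, Prdm9, Meiob, Msh4, Majin, Stra8 and Ythdc2. Means above 1000 have no library values, so nothing on single libraries applies to those 8 genes. No paired analysis was possible because the recovered library values carry no replicate numbers.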

Other observations

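Of 20 germ cell markers 5 rose, 0 fell and 15 did not pass, so that 25.0% passed against 10.3% of all tested genes. Asz1, a germ cell protein of the piRNA pathway, had 227, 244 and 266 normalized counts in Ehmt2 siRNA libraries and 51.6, 38.8 and 28.4 in control libraries, a log2 fold change of 2.62 (Benjamini-Hochberg adjusted p = 4.03e-25). Gtsf1, a second piRNA factor, had 244, 244 and 232 normalized counts in Ehmt2 siRNA libraries and 87.9, 92.5 and 63.9 in control libraries, a log2 fold change of 1.55. Nanos3, which primordial germ cells need to survive, had 183, 294 and 193 normalized counts in Ehmt2 siRNA libraries and 125, 116 and 111 in control libraries, a log2 fold change of 0.92. Prdm1 (0.56) and Kit (0.39) were the others. Among those that did not pass, Ddx4 had a log2 fold change of 0.21 and Dazl of 0.67 (adjusted p = 0.319). Fold changes below 0 were those of Tdrd1 (-0.98, adjusted p = 0.122), Nanos2 (-0.96, at a mean of 1.51 normalized counts), Figla (-0.46), Taf7l (-0.17), Nobox (-0.14) and Piwil2 (-0.01). All other markers of the list were above 0. Of the 12 germ cell markers with library values, library A was the lowest Ehmt2 siRNA library for 10 and library F the lowest control library for 12. Over all recovered genes with a mean of 20 to 1000 the shares were 52.2% and 56.7%. Nanos2, Sohlh1, Figla and Nobox had means under 20, where a few reads set the order of libraries.

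Of 9 tested fibroblast markers 1 passed, 11.1% against 10.3% of all tested genes. Col1a2 rose, with 188, 200 and 167 normalized counts in Ehmt2 siRNA libraries and 31.5, 31.8 and 40.2 in control libraries. Its log2 fold change was 2.43. The 8 that did not pass went both ways. Postn (2.46), Lum (2.03), Col3a1 (1.65), Vim (0.43) and Fn1 (0.15) were above 0, and Thy1 (-1.01), Col1a1 (-0.39) and Pdgfrb (-0.33) below. Postn, Lum and Col3a1 had means of 5.44, 1.93 and 0.741 normalized counts. Meikin, a kinetochore protein of meiosis, had a few reads in each Ehmt2 siRNA library, at 3.20, 3.15 and 2.10 normalized counts, and 0 in each control library, and did not pass (adjusted p = 0.27); it was singled out after its values were seen.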
